A study of Mus musculus with 2 samples.

Results

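Leukocytes, the white cells of blood and tissue, carry a small set of microRNAs that most other cells hold at low levels. The levels of 6 genes of this set, Mir142, Mir223, Mir146, Mir150, Mir155 and Mir146b, were measured in skeletal muscle of newborn mice. They were read from 6 of the 1973 rows of the deposited count tables, found by Ensembl gene ID and GENCODE symbol. For 5 genes the counts on the annotated strand were taken. Mir142 has no row in the tables, and its counts were read from the opposite strand of the row Mir142b, as described below. Muscle tissue of strain B6NCrl was taken at postnatal day 0, RNA under 30 bases was sequenced, and each of the 2 libraries came from a portion of muscle from 1 pup of unrecorded sex. The labels call the libraries biological replicates 1 and 2 and carry the same donor record for both. All samples belong to 1 group with no treatment or mutation, so the comparison is between libraries and not between conditions.

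A microRNA is cut from a hairpin transcript, and its seed, bases 2 to 8 from the 5′ end, pairs with messenger RNAs and lowers their output. Mir142 is active in almost all blood-forming cells, and Mir223 is typical of neutrophils, monocytes and platelets, where it restrains myeloid activation. Mir150 marks mature lymphocytes and acts on the transcription factor gene Myb. Mir146 (miR-146a), its paralog Mir146b and Mir155 respond to inflammatory signals. miR-146a dampens NF-kB signalling through Traf6 and Irak1, and miR-155 acts on the signalling inhibitors Socs1 and Inpp5d. These last 3 are not restricted to leukocytes. Muscle contains leukocytes both as resident macrophages and inside its blood vessels.

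The mature sequences below show which seeds the genes contribute and how closely the miR-146 paralogs resemble each other. They are from RefSeq on GRCm38.p6, matched for 5 of the 6 genes, and Mir150 is named only. Capitals mark the seed, and for each gene the arm commonly found as the main product is given, with both arms for miR-142.
miR-223-3p: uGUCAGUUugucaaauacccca
miR-142a-3p: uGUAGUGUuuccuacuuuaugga
miR-142a-5p: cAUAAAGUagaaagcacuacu
miR-146a-5p: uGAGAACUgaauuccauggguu
miR-146b-5p: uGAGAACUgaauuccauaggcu
miR-155-5p: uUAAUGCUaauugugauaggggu

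Only miR-146a-5p and miR-146b-5p had a seed in common. None of the other 4 sequences shared its seed with any of the 1738 mature microRNAs in the RefSeq table. The miR-146 pair was identical at 20 of 22 bases. Counted from the 5′ end, miR-146b-5p differs from miR-146a-5p by G18A and U21C, so the first 17 bases are the same. The longest run shared by the hairpins of Mir146 and Mir146b was 21 bases. For Mir223, Mir155 and Mir142 the longest run shared with any other hairpin of 1005 was 12, 10 and 13 bases. The tables count reads per hairpin gene, so the arms are not told apart.

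Mir142 lies on the plus strand of chromosome 11 at 87756864 to 87756927 (GRCm38), in an intron of its noncoding host gene Mir142hg. Mir142b is annotated on the minus strand over the same bases, at 87756841 to 87756955. The hairpin of Mir142 below, with the 5p and 3p arms in capitals, was contained in full in the reverse complement of the Mir142b hairpin.
Mir142: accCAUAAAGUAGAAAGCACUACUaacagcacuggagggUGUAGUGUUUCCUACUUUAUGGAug
miR-142b: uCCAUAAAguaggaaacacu

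The mature miR-142b, 20 bases long and shown with its seed in capitals, was the exact reverse complement of a stretch of miR-142a-3p. A read on the plus strand here therefore has the sequence of miR-142 and not of miR-142b. In replicate 1 the row Mir142b held 1 count on its annotated strand and 7306 on the opposite strand. Replicate 2 held 0 and 6286. Almost every read at this locus thus ran in the direction of Mir142. The row was not the only one of its kind: of 375 rows with at least 10 counts in both libraries, 353 had over 99% of counts on the annotated strand and 12 had most on the opposite strand. Each of those 12 rows faces a microRNA gene that has no row in the tables, and Mir142b ranked 8 among them by level. For Mir223, Mir146, Mir155 and Mir146b the opposite strand held 0 counts in both libraries, and for Mir150 it held 0 and 2.

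**Figure D1:**
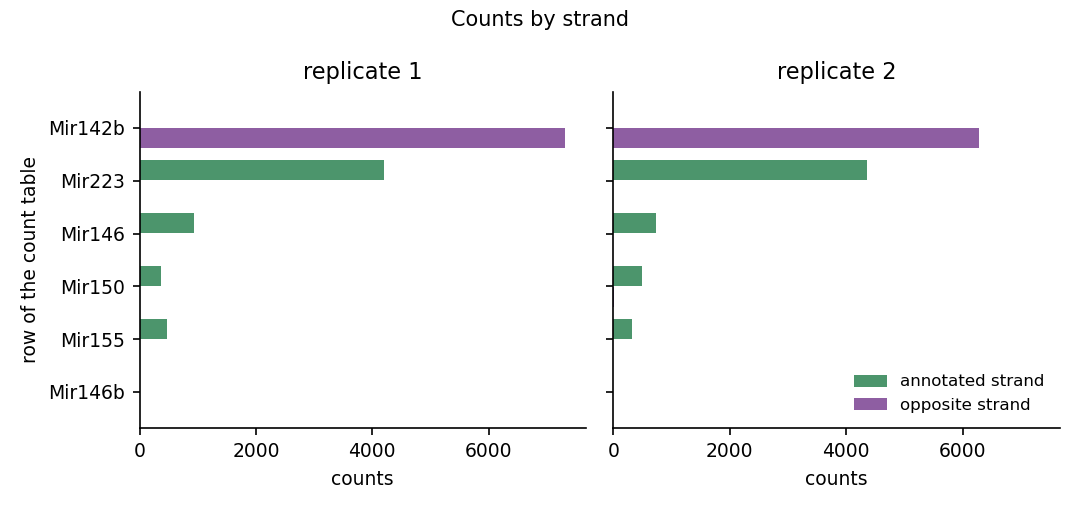
Counts on the annotated (green) and opposite (purple) strand, in rows of the count table, for replicates 1 and 2. The bar of Mir142b is on the opposite strand in both libraries (7306 and 6286 counts), while the other rows hold their counts on the annotated strand, with 5 and 0 counts at Mir146b.

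The libraries held 7955914 and 10816295 annotated-strand microRNA counts in replicates 1 and 2. Levels are given in CPM, counts per 1000000 of these annotated-strand counts, with 95% exact Poisson intervals that cover counting error only. At this depth 3 counts, used as a rough limit for a count of 0, correspond to 0.377 and 0.277 CPM. Of a list of 8 muscle microRNA genes, 7 had a row and 6 had at least 10 counts in both libraries. The gene without a row, Mir1a-2, faces the row Mir1b, whose 192 and 105 opposite-strand counts were not added. The summed level of the 7 was 109278 and 122731 CPM, nearly all of it from Mir206. Mir133b (832 CPM on average), Mir208b (747) and Mir499 (493) stood far below it, and Mir1a-1 (8.26), Mir133a-1 (5.73) and Mir133a-2 (1.18) were low in these counts, which leave out reads that several gene copies share.

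Mir142 was the most abundant of the 6 genes. Its level was 918 CPM (897 to 940) in replicate 1 and 581 CPM (567 to 596) in replicate 2, a mean of 750 ± 238 (SD, n = 2). It ranked 102 by mean level among the 366 detected genes, those with at least 10 counts in both libraries. In this order the other 11 rows read mostly on the opposite strand have only their annotated-strand counts. With their opposite-strand counts added as genes of their own, an alternative chosen after seeing the data, Mir142 ranked 109 of 377. Mir142 alone made up 53.2% ± 2.41 of the counts of the 6 genes (SD, n = 2). Levels are those of the whole tissue, in which fewer cells of a type and less RNA per cell cannot be told apart.

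Mir223, the myeloid gene, was second. It lies on chromosome X at 96242817 to 96242926, in an exon of the noncoding gene F630028O10Rik. Its level was 528 CPM (512 to 544) from 4197 counts in replicate 1 and 403 CPM (391 to 415) from 4356 counts in replicate 2. It stood at rank 121 (129 with the opposite-strand rows added) and made up 33.6% ± 2.94 of the counts of the 6 genes. Mir142 exceeded it in both libraries, 1.74-fold and 1.44-fold, and the ranges of the 2 genes did not overlap. Together the pair took 86.9% ± 0.526 of the counts of the 6 genes (SD, n = 2).

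The inducible gene Mir146 followed at a lower level. It lies on the minus strand of chromosome 11 at 43374397 to 43374461 and overlaps no other annotated gene. Its level was 118 CPM (111 to 126) in replicate 1 and 68.4 CPM (63.6 to 73.5) in replicate 2, from 941 and 740 counts. Mir223 exceeded it 4.46-fold and 5.89-fold, again with no overlap between the ranges of the genes. Mir146 ranked 180 of 366, or 189 of 377 with the opposite-strand rows added, near the middle in either order.

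Its paralog Mir146b was almost absent from these counts. It lies on chromosome 19 at 46342762 to 46342870, in an intron of Mfsd13a, and had 5 counts in replicate 1 and 0 in replicate 2. The level in replicate 1 was 0.628 CPM (0.204 to 1.47). For replicate 2, 0 counts allow up to 0.277 CPM by the rough 3-count limit and 0.341 CPM by the exact Poisson interval. With under 10 counts in both libraries the gene was not among those tested between libraries. Mir146 exceeded Mir146b 188.2-fold in replicate 1 (80.4 to 581, exact binomial interval). In replicate 2 its count was 246.7-fold that of the 3-count limit, a value without an interval and not a lower bound. Nearly all counts of the pair therefore fell on Mir146. The tables leave out reads with several possible places, 28.01% and 26.9% of all reads, and whether short reads of the miR-146 pair were among them was not tested.

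Mir150 and Mir155 were the lowest of the 5 detected genes and exchanged places between libraries. Mir150, of lymphocytes, lies on chromosome 7 at 45121757 to 45121821 and overlaps no other annotated gene. Its level was 46.0 CPM (41.4 to 51.0) and 45.0 CPM (41.1 to 49.2) in replicates 1 and 2, from 366 and 487 counts. Of the 5 detected genes it had the smallest spread in CPM, with a mean of 45.5 ± 0.692 (SD, n = 2). This depends on the scaling: with the scaled library sizes used below, Mir223 differed least (log2 ratio 0.14, against -0.21 for Mir150). Mir155 lies on chromosome 16 at 84714140 to 84714204, in an exon of its host gene Mir155hg. Its level was 60.3 CPM (55.1 to 66.0) in replicate 1 and 30.1 CPM (27.0 to 33.6) in replicate 2, from 480 and 326 counts. Mir155 was therefore above Mir150 in replicate 1, with a ratio of 1.31, and below it in replicate 2, with a ratio of 0.669. The counting intervals of the pair did not overlap in either library, but the ranges over the libraries did. Their means, 45.2 and 45.5 CPM, do not order them.

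**Figure D2:**
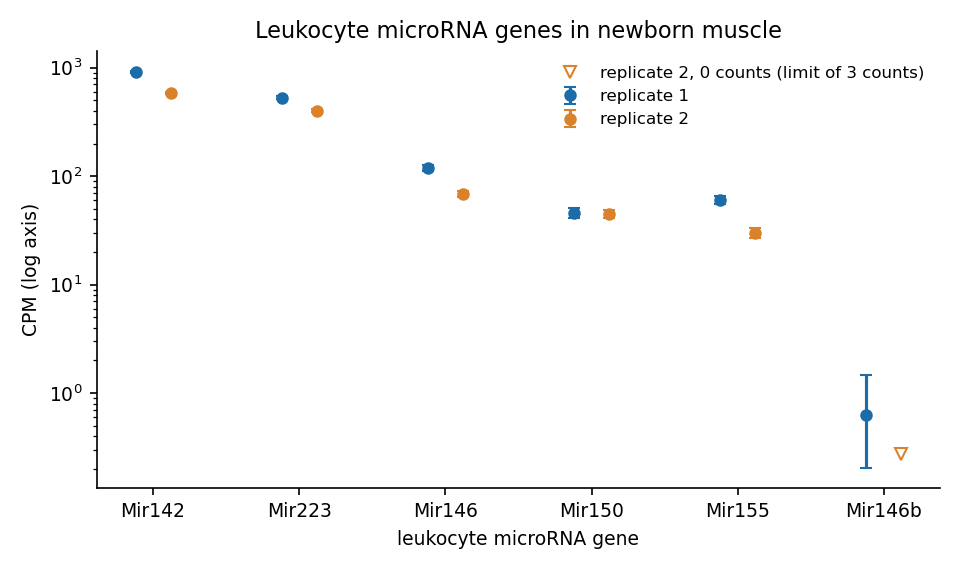
Level of each gene in CPM (log axis) in replicate 1 (blue) and replicate 2 (orange), with 95% exact Poisson counting intervals. An open triangle stands for 0 counts and is drawn at the 3-count limit. Mir142 and Mir223 lie between 403 and 918 CPM, Mir146, Mir150 and Mir155 between 30.1 and 118, and Mir146b at 0.628 CPM and 0 counts.

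In sum the 6 genes held 13295 counts in replicate 1 and 12195 in replicate 2. Set against the annotated-strand totals, which do not contain the Mir142 counts, this was 0.167% and 0.113%. The mean share was 0.140% ± 0.0384 (SD, n = 2). Without Mir142 it was 0.0650%, and with the total of both strands as the base, Mir142 included, it was 0.124%. Mir206, the muscle-specific microRNA gene, exceeded Mir142 117-fold and 208-fold in replicates 1 and 2. Mir126a, of endothelial cells, exceeded it 49.0-fold and 81.6-fold. The leukocyte genes were thus minor species beside Mir206 and Mir126a. Mir142 was not minor beside the muscle genes Mir133b, Mir208b and Mir499. Its 918 and 581 CPM in replicates 1 and 2 stood above Mir499 (545 and 442) in both. Mir142 was above Mir133b (841 and 823) and Mir208b (732 and 763) in replicate 1 and below them in replicate 2. The means of Mir142, Mir133b and Mir208b, 750, 832 and 747 CPM, therefore do not order them. Mir1a-1, Mir133a-1 and Mir133a-2 were not compared, since their counts leave out reads that gene copies share. The means of Mir223 (465 CPM), Mir146 (93.3), Mir150 (45.5), Mir155 (45.2) and Mir146b (0.314) were all below that of Mir499 (493). In the tables as a whole, 1255 genes had 0 counts on the annotated strand in both libraries, with Mir142 read as described. Some of these rows, such as Gm25252 (187622 and 239751), held many opposite-strand counts.

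**Figure D3:**
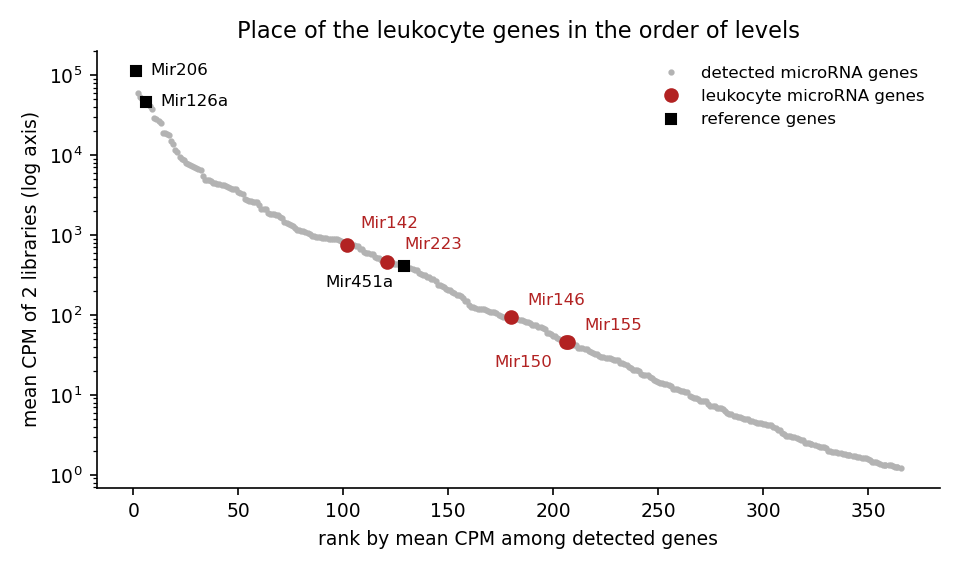
Mean CPM (log axis) of the 366 detected genes against their rank. Red points are the 5 detected leukocyte genes, between ranks 102 and 207 in the order without other opposite-strand rows, and black squares are Mir206 (rank 1), Mir126a (rank 6) and the erythroid Mir451a (rank 129).

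For each detected leukocyte gene, the genes of closest level over the 2 libraries were found by distance on the log2(CPM + 1) scale. Over 2 samples such nearness describes a level and little else. Nearest to Mir142 was Mir342, a microRNA gene known from lymphocytes, with 993 and 528 CPM and a distance of 0.18. Nearest to Mir223 were Mir125b-2 (507 and 406 CPM) and Mir499 (545 and 442 CPM), the latter in the myosin gene Myh7b. Mir125b-2 has another copy, Mir125b-1, and reads placed at both are left out of its level. Mir31, known from muscle satellite cells (52.4 and 44.0 CPM), and Mir877 (51.4 and 43.0 CPM) stood closest to Mir150. Mir146 was closest to Mir669l (115 and 71.8 CPM), and Mir155 to Mir669c (53.7 and 30.4 CPM). The next nearest were Mir494 for Mir142, Mir1981 for Mir146 and Mir193b for Mir155.

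Between the libraries, the detected leukocyte genes differed by less than 2-fold in 5 of 5 cases. Ratios are of replicate 1 over replicate 2 after trimmed-mean (TMM) scaling of library sizes, which shifts every log2 ratio by -0.25 against library totals. Calls needed at least 2-fold and an adjusted p under 0.05 in an exact two-sided binomial test, Benjamini-Hochberg adjusted over 366 genes. None of the 5 was called, where 7.38% of all detected genes were (27 of 366), and none was with DESeq2 size factors. At an unadjusted p under 0.05, with no fold minimum, 5 of 5 passed, and at least 61.2% of all detected genes did. The test knows no error other than counting error, so at these counts it finds small differences: by adjusted p alone, 61.2% of detected genes passed. Of the 5 genes 4 passed by adjusted p alone, all higher in replicate 1, a direction in which 30.3% of all genes passed. With DESeq2 size factors 5 of 5 passed, since Mir150 then passed with a higher level in replicate 2 (log2 ratio -0.23, adjusted p = 0.036, exact binomial test). The share of all detected genes that passed with those factors was not computed, so this 5 of 5 has no background to be read against. The median log2 ratio of the 5 was 0.41, against 0.015 over all detected genes.

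Mir155 had the largest difference of the 5, with a log2 ratio of 0.76 (95% counting interval 0.55 to 0.96, adjusted p = 5.5e-13, exact binomial test). Under library totals this became 1.00, just past 2-fold. Mir146 had a ratio of 0.54 (0.40 to 0.69), and Mir142 of 0.41 (0.37 to 0.46). The ratio of Mir223 was 0.14 (0.083 to 0.21). These 3 values passed the adjusted p but are differences that many genes showed, since the median absolute log2 ratio over all detected genes was 0.31 and 90% lay within 0.91. By size of the difference, Mir155 stood at percentile 85.5 of the detected genes, Mir146 at 74.3, Mir142 at 62.6 and Mir223 at 24.0. Mir150 had a ratio of -0.21 (-0.41 to -0.016, adjusted p = 0.054, exact binomial test), which was 0.031 under library totals, so its direction depends on the scaling. Its adjusted p ran from 0.036 to 0.80 over the alternatives (exact binomial test). The 2 inducible genes thus had larger ratios than the other 3, and whether the genes differed from each other in this was not tested.

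**Figure D4:**
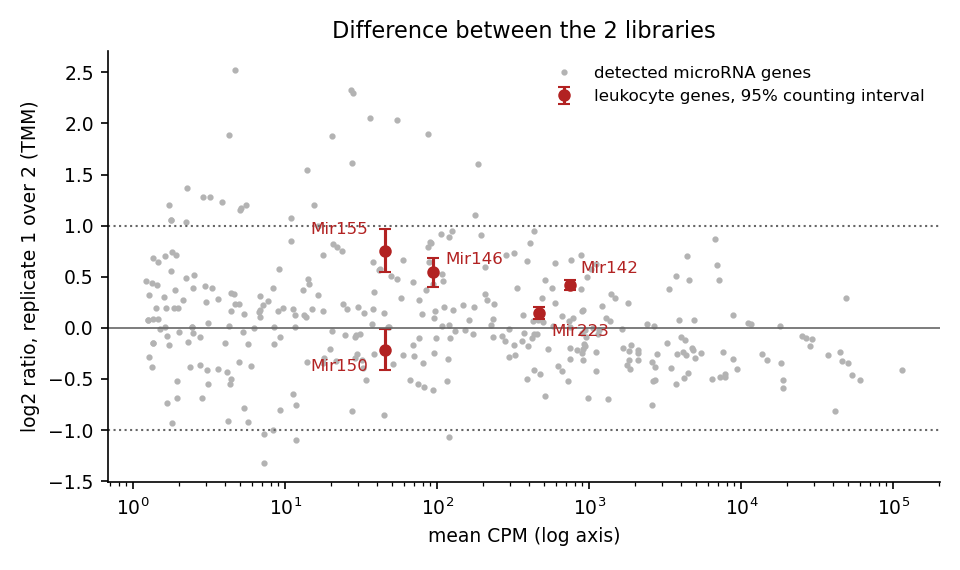
Log2 ratio of replicate 1 over replicate 2 (TMM) against mean CPM (log axis) for 366 detected genes (grey) and the 5 detected leukocyte genes (red, with 95% counting intervals). Dotted lines mark 2-fold. The leukocyte genes lie between -0.21 for Mir150, which is 0.031 under library totals, and 0.76 for Mir155, inside the cloud of the other genes.

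Genes of red blood cells were set beside them, since both kinds of cell occur in blood. Mir451a, the main microRNA of red cells, stood at 548 and 260 CPM in replicates 1 and 2, with a log2 ratio of 0.83 (0.76 to 0.90). Its neighbour Mir144 had 34.6 and 25.3 CPM and a ratio of 0.20 (-0.044 to 0.45), which did not pass the adjusted p. Mir486, found in muscle as well as red cells, had 66.9 and 82.7 CPM and a ratio of -0.55. Its row held 532 and 895 counts on the annotated strand and a further 61 and 69 on the opposite strand, which were not added. The summed level of these 3 genes was 650 and 368 CPM. The 6 leukocyte genes together exceeded this sum 2.57-fold and 3.06-fold in replicates 1 and 2. The sum leaves out reads with several possible places. Whether reads of Mir486 or the other red-cell genes were among them was not tested, so the excess holds for the counted reads only. Mir142 exceeded Mir451a 1.67-fold and 2.23-fold, while Mir223 was below Mir451a in replicate 1 (ratio 0.962) and above it in replicate 2 (1.55). The part of blood in the levels or ratios of the leukocyte genes was not tested.

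A further list of 10 microRNA genes linked to immune cells, several of them widely expressed, was detected in full. Their means ran from 4.24 to 6956 CPM. Mir21a, abundant in myeloid cells and in many other tissues, was the highest with 8967 and 4944 CPM. Mir652 had 4310 and 4375 CPM, and Mir342 had 993 and 528. Mir511, in the macrophage mannose receptor gene Mrc1, had 23.4 and 12.0 CPM, and Mir147, induced in activated macrophages, 5.28 and 3.51. By adjusted p alone (exact binomial test), 5 of the 10 were higher in replicate 1 and 3 in replicate 2, where 30.3% and 30.9% of all detected genes were, and their median log2 ratio was 0.48. With the 2-fold minimum added, 2 of the 10 were called, where 7.38% of all detected genes were. They were Mir181b-1 (6.91 and 1.57 CPM, ratio 1.89) and Mir181b-2 (291 and 80.9 CPM, ratio 1.60). Both encode the same mature microRNA, and the counts leave out reads with several possible places, so the levels and ratios of both are uncertain. The same limit holds for the copies Mir181a-1 (ratio -0.52) and Mir181a-2 (ratio -0.81). They are among the genes counted as higher in replicate 2, so the split by direction is uncertain too. Mir342 exceeded the lymphocyte gene Mir150 21.6-fold and 11.7-fold, and its log2 ratio between libraries was 0.67 (0.62 to 0.72).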

How the data were processed

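Small RNA libraries from 2 muscle samples were analysed. The authors deposited raw counts for 1973 microRNA genes per library, as whole numbers on either strand, the annotated strand and the opposite strand. The assembly was mm10 with GENCODE M4, per the readme files deposited beside the tables. Which aligner and counter were used is not given in the sources used here. That the column with most counts (89.3% and 88.1%) is the annotated strand was inferred from the values. Rows of reads that name no gene stayed out of library sizes: several places (28.01% and 26.9% of reads), unmapped (16.04% and 13.4%) and in no gene (1.60% and 1.43%). Symbols and positions came from GENCODE M21 on GRCm38, the same assembly as mm10, for 1894 of 1973 IDs.

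Of the 6 genes, Mir142 was read from the opposite strand of Mir142b, and its counts replaced that row in the tested table. CPM use annotated-strand totals. Each read covers a whole mature microRNA, so counts were not divided by length, and with counts per hairpin base the order of the 6 genes was the same. TMM scaled the library sizes (factors 1.09 and 0.918, edgeR 4.0.16, R 4.3.3), and exact tests used scipy 1.17.1. The test was tried on simulated counts with counting error only, which cannot show how it behaves with further spread between libraries. Named genes were the 6 genes, the 2 detected genes nearest to each in level (pseudocount 1 CPM), the 3 highest and any called of a list of 10 immune-linked genes, and reference genes of red cells, endothelium and muscle. Mir511, Mir147, Mir181a-1 and Mir181a-2 of that list were named after their values were seen. Members and lists were chosen with earlier results of these data known. Alternatives were unstranded counts, other totals, DESeq2 1.42.0 size factors, library totals, count minimums of 1 and 50, a fold minimum of 1.5 and each replicate left out of the levels.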

Additional observations from a re-analysis of the deposited data

How the results depend on the processing

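Levels of the 6 genes moved by less than their SD under every other total or scaling tried, except for Mir150, whose SD was small. Mir150 had 40.5 CPM with unstranded counts, 40.4 with the total of both strands and 51.4 without Mir206 in the total. The SD of 2 libraries is a loose limit where they differ. With the total of both strands Mir155 fell from 45.2 to 40.2 CPM, much as Mir150 did from 45.5, but its SD was 21.3. The summed share ran from 0.113% to 0.167% with either replicate left out, and was 0.0650% without Mir142b. The count of genes that differed between libraries was 27 (23 higher in replicate 1 and 4 in replicate 2). It was 42 under library totals (41 and 1), 15 with a count minimum of 50 and 72 with a fold minimum of 1.5, the last 2 by construction. Under library totals Mir155 reached a log2 ratio of 1.00 and was called, as it was at 0.76 with the lower fold minimum, and Mir150 turned from -0.21 to 0.031. Adding the other opposite-strand rows, chosen after seeing the data, lowered the 5 detected genes by 7 to 9 ranks. No paired analysis was possible because there is only 1 group. With 2 libraries, no difference between them can be set against the spread within a group, and Mir146b is limited by depth.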
